A study of Mus musculus with 15 samples.

Results

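Control macrophages were compared after 3 h of lipopolysaccharide (LPS) and at rest (0 h) by DNase-seq, an assay in which the enzyme DNase I cuts open chromatin more readily than packed chromatin. The comparison used 6 of the 15 libraries of the series. They were chosen by their labels as the WT and littermate control libraries at 3 h (3 libraries) and at 0 h (3 libraries). All came from primary macrophages grown from the bone marrow of C57BL/6J mice, and the labels give LPS at 10 ng/ml. At each time there were 2 wild-type (WT) libraries, digested with 80 U of DNase in replicate 1 and 100 U in replicate 2 per the titles, and 1 littermate control library digested with 80 U. The other 9 libraries are the 3 controls at 8 h and 6 libraries of the genotype labelled Ikzf KO (2 each at 0, 3 and 8 h), which are used below only as libraries that had no part in choosing regions. The series title names Ikaros as the factor under study. Whether replicates are separate mice or cultures is not in the labels, so every p-value rests on a spread between libraries that may be technical. The labels give no allele or Cre driver for the KO.

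LPS comes from the envelope of Gram-negative bacteria, and macrophages sense it through Toll-like receptor 4, whose adaptors MyD88 and TRIF activate NF-kB, AP-1 and interferon regulatory factors. In macrophages many of the enhancers that these factors use are held open before any stimulus by lineage factors such as PU.1 and C/EBP proteins. Other sites become accessible when the stimulus arrives, and some lose accessibility. DNase hypersensitive sites mark promoters, enhancers and insulators alike, and their strength in a bulk library cannot separate a site open in more cells from a site more open in each cell.

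The deposited lists of hotspots (stretches of dense DNase cuts) differed in length, with 15659, 20077 and 52400 hotspots at 3 h in WT replicate 1, WT replicate 2 and the littermate, against 17237, 21377 and 64262 at 0 h. The lowest Z-score (a score the lists give for each hotspot) was 10.6 and 9.37 in the WT lists at 3 h, against 8.29 and 9.29 at 0 h. In the littermate lists it was 4.54 at 3 h and 4.38 at 0 h. The lists thus reached down to different levels, and the littermate and KO lists carry the tag FDR1 in their names where the WT lists do not. On chromosomes 1 to 19 each was shortened to the 15042 hotspots with the highest tag density, the length of the WT replicate 1 list at 3 h. At this length the lists covered 12.0 ± 1.85 Mb at 3 h and 11.9 ± 2.24 Mb at 0 h (SD, n = 3 each; exact two-sided permutation p = 1). Median hotspot width was 729 ± 102 bp at 3 h and 733 ± 129 bp at 0 h (exact two-sided permutation p = 1; adjusted p = 1 for both measures over 2 tests), and 3 against 3 libraries cannot give a p below 0.1. The WT replicate 1 list at 3 h was used whole. It holds 1172 hotspots (7.79%) with a density under 5.17, the lowest last density among the other 5 lists. In the other lists the cut fell within runs of hotspots of equal density, for instance 6.32 in the littermate list at 3 h, where 1454 of 1941 such hotspots were inside it. Tag densities are whole multiples of a step in each library, and if all libraries were scaled to the same total the steps give depths, relative to the deepest library of the series, of 0.947, 0.597 and 0.525 at 3 h and 0.596, 0.644 and 0.630 at 0 h.

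After 3 h of LPS, 779 regions had entered and 580 had left the strongest hotspots of all 3 controls, while 7538 regions were held by all 6 lists. Overlap of 1 bp or more joined the hotspots of the 6 lists into 24852 union regions. A region was called gained if all 3 lists at 3 h held it and no list at 0 h did, and lost in the reverse case. Gained regions were 3.13% and lost regions 2.33% of all union regions. Most of the remaining regions were held unevenly: 3019 were in 1 list at 3 h and no list at 0 h, and 3319 in 1 list at 0 h and no list at 3 h. Another 626 regions missed the gained class because a single list at 0 h held them, and 693 missed the lost class because a single list at 3 h held them, so the groups of 3 and none are the ends of a range.

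**Figure D1:**
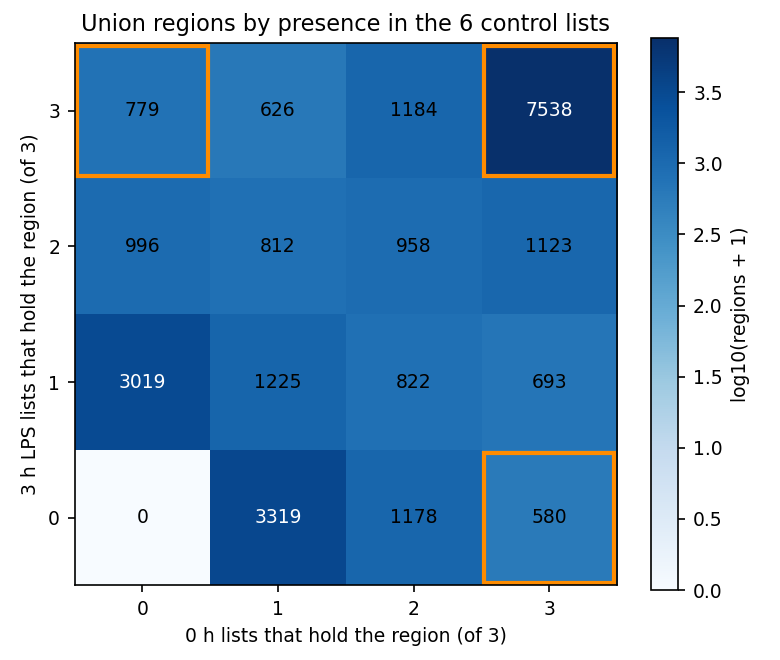
Number of union regions by how many of the 3 lists at 3 h LPS (vertical axis) and of the 3 lists at 0 h (horizontal axis) hold them; colour is log10 of the count plus 1 and orange frames mark gained (779), lost (580) and shared (7538) regions. The shared corner holds the most regions, and regions in a single list of either time come next.

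Within the WT lists alone, 1368 regions were gained and 1278 lost (6.21% and 5.80% of the union regions of those lists). The littermate lists alone, with 1 list a time and no replicate check, gave 23178 gained and 23376 lost regions at 50187 hotspots a list. These were 31.9% and 32.2% of the union regions of the littermate lists. Gained regions outnumbered lost ones in the 6 lists together. This balance turned round in the lists as deposited (357 gained and 379 lost, 0.427% and 0.453% of union regions). It also turned round without the WT replicate 1 list at 0 h (1017 gained and 1126 lost, 4.26% and 4.71%). Without the WT replicate 1 list at 3 h the counts were 1284 gained and 864 lost (4.81% and 3.24%). Without WT replicate 2 at 0 h they were 973 and 873 (4.04% and 3.62%), and without the littermate at 0 h 979 and 946 (4.17% and 4.03%). Leaving out a list of 1 time eases the rule unequally for gained and lost regions. The balance in such counts is thus not comparable with that of the 6 lists. With WT replicate 1 left out at both times, the counts were 1751 and 1707 (5.93% and 5.78% of union regions). With WT replicate 2 left out at both times they were 1310 and 1112 (5.63% and 4.78%). The deposited lists were longer at 0 h than at 3 h in every series.

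The strongest gained regions reached ranks between 612 and 4691 at 3 h and were past the cut or missing at rest. Positions are given in the build mm9 as in the deposited lists, which do not state whether they count from 0 or 1, and rank 1 is the highest tag density of a list. Ranks are given for WT replicate 1, WT replicate 2 and the littermate in that order. The strongest gained region was chr9:20939748-20941223, with ranks of 2247, 643 and 891 at 3 h, and it was in no deposited list at 0 h. Its Z-scores at 3 h were 25.9 to 36.4. The second, chr11:116238167-116239022, ranked 3072, 702 and 612 at 3 h, and at 0 h only the littermate list held it, at rank 17823. The third, chr2:122491003-122492604, ranked 2248, 1686 and 1170 at 3 h and was in no deposited 0 h list. In each of these 3 regions the WT replicate 1 library had the weakest rank of the 3 libraries at 3 h.

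Next came chr11:119253977-119255153, with ranks of 2134, 1065 and 1964 at 3 h and rank 15680 in the littermate list at 0 h. It was missing from both WT lists at 0 h. The fifth, chr12:114035812-114036589, ranked 2666, 767 and 2102 at 3 h and was in no deposited list at 0 h. The sixth, chr1:182357597-182359099, ranked 3564, 1384 and 1165 at 3 h, and at 0 h 19610 in WT replicate 2 and 24047 in the littermate. The 3 h and 0 h ranks of these 3 regions do not overlap, which the choice of regions fixes. The other 4 of the 10 strongest were chr7:133737883-133740288, chr17:18003254-18004545, chr8:117943675-117945289 and chr14:103411567-103412534, with ranks between 1101 and 4691 at 3 h. Of the 10, 5 were in no deposited list at 0 h.

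The strongest lost region was chr5:64727821-64729037. At 3 h it was missing from both WT lists and ranked 17320 in the littermate list, against ranks of 3262, 374 and 1099 at 0 h. The second, chr17:5769959-5770994, was in no deposited list at 3 h and ranked 5097, 1738 and 999 at 0 h. The third, chr10:59829809-59830945, was also in no list at 3 h, against ranks of 4491, 1158 and 2397 at 0 h. As in the gained regions, the WT replicate 1 library gave these 3 sites their weakest rank. Then came chr15:100279909-100280661, which ranked 16272 in the littermate list at 3 h and was missing from both WT lists, against 3635, 4327 and 2876 at 0 h. The fifth, chr11:114862650-114863456, ranked 32791 in the littermate list at 3 h and was missing from both WT lists, against 6126, 3139 and 1582 at 0 h. The other 5 were chr3:87205029-87205998, chr17:5591259-5592440, chr7:143105410-143106577, chr14:122395968-122396707 and chr16:18411864-18412687, with ranks between 838 and 8800 at 0 h. The regions at chr17:5769959 and chr17:5591259 lie on the same chromosome within a megabase of each other. Of the 10, 7 were still in at least 1 deposited list at 3 h.

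**Figure D2:**
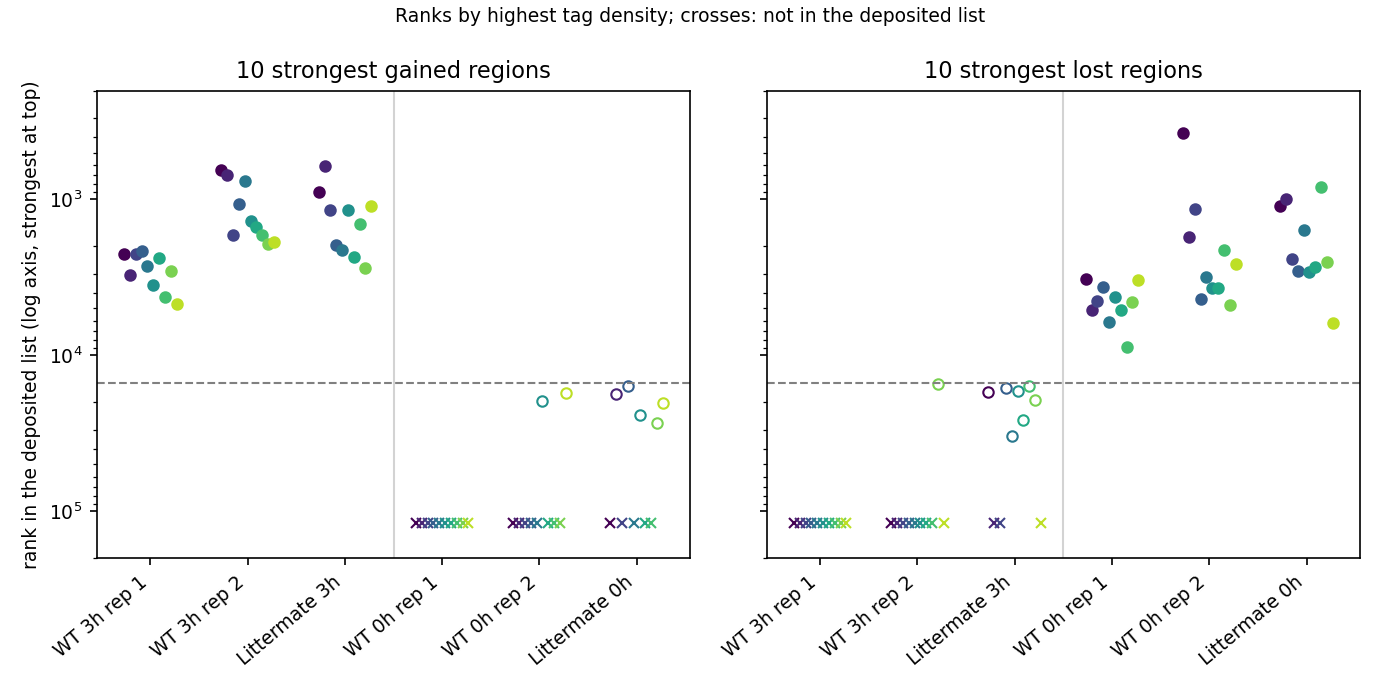
Rank by highest tag density (log axis, strongest at the top) of the 10 strongest gained (left) and 10 strongest lost (right) regions in each of the 6 control libraries, with 3 h libraries left of 0 h libraries; filled points lie inside the cut of 15042 (dashed line), open points beyond it in the deposited list, and crosses mark regions missing from the deposited list. Gained regions rank 612 to 4691 at 3 h, and lost regions rank 374 to 8800 at 0 h.

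Most gained regions were listed before LPS in at least 1 library, at weaker ranks than the cut. Of the 779 gained regions, 565 (72.5%, Wilson 95% interval 69.3 to 75.5) were in at least 1 deposited list at 0 h, against 93.4% of all union regions, which include those that the choice of classes requires to be there. The other 214 were in none. The 0 h lists held 39 of them in WT replicate 1, 175 in WT replicate 2 and 552 in the littermate, where the median rank of those held was 25136. Of the 580 lost regions, 461 (79.5%, 76.0 to 82.6) were in at least 1 deposited list at 3 h, against 92.2% of all union regions. WT replicate 1 held 0 of them (upper limit of the Wilson interval 0.658%), since that list was used whole, WT replicate 2 held 129 and the littermate 455. Intervals cover counting only, and neighbouring regions are not independent. The share still found follows the length of the list, so a region missing from a short list is not shown to be closed.

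Gained and lost regions were mostly not the strongest sites of their libraries. At 3 h the median rank of gained regions was 9811, 8958 and 7765 in WT replicate 1, WT replicate 2 and the littermate, and 52, 107 and 175 of the 779 were within the best 5000 ranks. At 0 h the median rank of lost regions was 10257, 9601 and 8464, with 19, 50 and 88 of the 580 within the best 5000. Shared regions had median ranks of 4009 to 4254 at 3 h and 4010 to 4206 at 0 h. In WT replicate 1 at 3 h, 62 gained regions (7.96%) were held only by hotspots of a density under 5.17. Gained regions had a median width of 927 bp (quartiles 770 to 1146) and lost regions of 879 bp (754 to 1037), against 1163 bp for shared regions and 666 bp for all others. Because hotspots of several lists were joined, these widths also depend on how many lists hold a region.

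The distance to regions held at both times was described for each class. The nearest shared region was at a median distance of 34.7 kb from a gained region (quartiles 11.7 to 90.5) and 34.9 kb from a lost region (11.5 to 95.9), and 39.0 kb from regions of neither class. Within 10 kb of a shared region lay 176 gained (22.6%), 131 lost (22.6%) and 3566 other regions (22.4%). Over the 19 chromosomes, gained regions made up 1.91% (chromosome 15) to 4.43% (chromosome 17) of union regions, and lost regions 1.16% (chromosome 18) to 3.16% (chromosome 7). More regions were gained than lost on 15 chromosomes, and fewer on chromosomes 7, 9, 10 and 15.

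Some gained regions lay in runs along the chromosome. Of the gained regions 206 (26.4%) had another gained region within 50 kb, and 19 runs held 3 or more. Of the lost regions 94 (16.2%) had another lost region within 50 kb, with 9 such runs. The classes differ in size, so these shares are not comparable. They were not set against equally many regions drawn from all union regions. Whether gained or lost regions lie closer together than union regions in general was therefore not tested. Runs were looked for after the classes had been seen. The run with the most members held 6 gained regions over 58.3 kb at chr19:34624954-34683299, out of 9 union regions there and with no shared region among them. Its members ranked 2849 to 14487 at 3 h. At 0 h the region chr19:34681349-34683299 was in all 3 deposited lists beyond the cut, at ranks of 16214, 16484 and 27960, whereas chr19:34627200-34628662 and chr19:34651345-34652978 were in none.

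Other runs of gained regions were chr17:29534791-29579541 with 5 gained of 6 regions, chr11:83336990-83364560 with 5 of 7, chr4:132304318-132380340 with 5 of 14, chr19:11568835-11677098 with 4 of 10 and chr17:27684050-27729418 with 4 of 6. The run on chromosome 11 spanned 27.6 kb, held no shared region, and 3 of its 5 members were in no deposited list at 0 h. Among lost regions the run with the most members was chr16:23271756-23315624, where 4 of 4 union regions were lost. No annotation of this build was used, so genes are not named and the macrophage identity of the cells was not checked against marker genes.

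Among the 7538 regions that all 6 lists held, 20 ranked better and 6 worse at 3 h (limma on the log2 rank number, adjusted p under 0.05 over all shared regions), which is 0.265% and 0.0796% of them. At an unadjusted p under 0.05 there were 673 regions (8.93%). Libraries of the same series (WT replicate 1, WT replicate 2 or littermate at both times) deviated together, and with the series as a replicate block 183 regions ranked better and 172 worse (2.43% and 2.28%), among them all 26 called without it. All 3 ranks at 3 h were better than all 3 at 0 h in 505 regions (6.70%) and worse in 508 (6.74%). Of the 20 ways to split the 6 libraries 3 against 3, 1 separates a region's ranks in each direction. Separated ranks alone were therefore not taken as a change. The median shift over all shared regions was 0.03 on the log2 scale, where -1 stands for a rank number cut by a factor of 2, and 953 regions (12.6%) shifted by at least 1 in either direction. Without the block the calls depended on the scale and the lists. On linear percentiles of the rank limma called 0 regions (588 at an unadjusted p under 0.05, 7.80%). With lists ordered by mean density it also called 0 (605 unadjusted, 8.11% of 7464). Without the littermate series it called 0 (574 unadjusted, 6.32% of 9081). Without WT replicate 2 at both times it also called 0 (391 unadjusted, 4.78% of 8173). Without WT replicate 2 at 3 h it called 1 region, and without the littermate at 0 h 2. Without WT replicate 1 at 3 h it called 39 better and 3 worse, without WT replicate 1 at 0 h 14 and 31, without the littermate at 3 h 5 and 1, and without WT replicate 2 at 0 h 4 and 2. None of these alternatives was run with the block, so how the calls with it depend on scale or lists was not tested. Adjusted p-values of the regions named below are without the block.

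**Figure D3:**
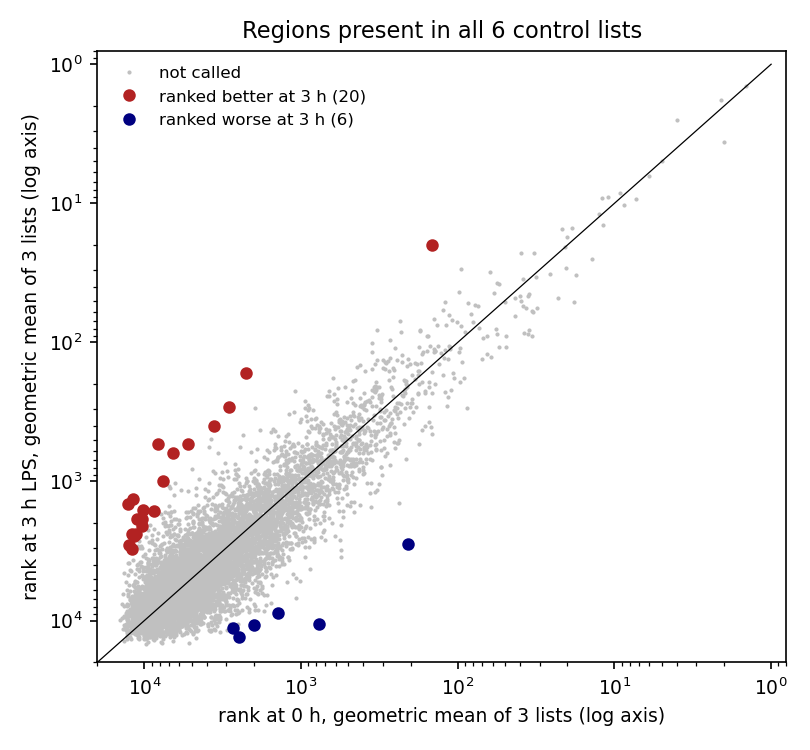
Geometric mean rank at 3 h LPS (vertical) against 0 h (horizontal) of the 7538 shared regions, on log axes with the strongest sites at the upper right; the line marks equal rank. The 20 regions ranked better at 3 h (red) lie above the line and the 6 ranked worse (blue) below it.

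Among the 20 called regions that ranked better, the largest fall in log2 rank number was at chr2:180323475-180324961. It ranked 795, 221 and 882 at 3 h, against 8273, 7063 and 9399 at 0 h. Its log2 rank number fell by 3.93 (SE 0.70, limma adjusted p = 0.0034). At chr11:69221921-69225788 the ranks were 227, 117 and 175 at 3 h, against 3854, 985 and 3020 at 0 h, and the log2 rank number fell by 3.76 (SE 0.81, limma adjusted p = 0.024). This region is 3867 bp wide and ranked 227 or better in all 3 libraries at 3 h. The third, chr16:10784784-10787081, ranked 424, 679 and 833 at 3 h, against 9596, 2656 and 11334 at 0 h. Its log2 rank number fell by 3.41 (limma adjusted p = 0.024).

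At chr9:108959530-108962613 the ranks were 356, 408 and 168 at 3 h, against 4702, 2878 and 1781 at 0 h (limma adjusted p = 0.042). At chr15:79233260-79234546 they were 666, 382 and 597 at 3 h, against 5402, 3015 and 9131 at 0 h (limma adjusted p = 0.024). In all 5 of these regions the ranks of the 3 h and 0 h libraries are separated, as the rule for naming them requires, and WT replicate 2 ranked the site best at 0 h in 4 of the 5. The strongest site among the 20, named here after its values were seen, was chr6:113256082-113258616, with ranks of 20, 17 and 23 at 3 h, against 149, 115 and 184 at 0 h, and its log2 rank number fell by 2.89 (limma adjusted p = 0.024).

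Among the 6 called regions that ranked worse, the largest rise in log2 rank number was at chr2:131029713-131031055. It ranked 11453, 9178 and 11538 at 3 h, against 1347, 718 and 468 at 0 h. Its log2 rank number was higher by 3.80 at 3 h (SE 0.64, limma adjusted p = 0.0030). At chr6:117380847-117382231 the ranks were 3325, 2010 and 3292 at 3 h, against 438, 205 and 101 at 0 h, a shift of 3.75 (SE 0.80, limma adjusted p = 0.024). Presence of both sites in every list is fixed by the choice of shared regions. At chr19:43875691-43876619 the ranks were 8195, 12763 and 6699 at 3 h, against 2260, 1277 and 939 at 0 h (limma adjusted p = 0.026). At chr13:46275644-46277140 they were 10376, 13461 and 8993 at 3 h, against 3203, 2219 and 1098 at 0 h (limma adjusted p = 0.026). At chr15:27654437-27655585 they were 12970, 13701 and 12439 at 3 h, against 4737, 2443 and 1324 at 0 h (limma adjusted p = 0.024). In each of these 5 regions the littermate library ranked the site best at 0 h and WT replicate 1 ranked it weakest.

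The KO libraries, which share no library with the control comparison, moved the same way at many gained and lost regions. In KO lists shortened to 15042 hotspots, 70.1% and 70.6% of the 779 gained regions were present in the 2 libraries at 3 h, against 25.7% and 25.8% in the 2 libraries at 0 h. Of the gained regions, 282 (36.2%, Wilson 95% interval 32.9 to 39.6) were in both KO lists at 3 h and in neither at 0 h. This pattern was held by 5.26% of all union regions. The reverse was shown by 2 gained regions (0.257%, against 5.15% of all union regions). Of the 580 lost regions, 30.2% and 26.0% were present in KO at 3 h, against 70.3% and 65.2% at 0 h. Here 181 (31.2%, 27.6 to 35.1) were in neither KO list at 3 h and in both at 0 h, a pattern held by 5.15% of all union regions. The reverse was shown by 2 lost regions (0.345%, against 5.26% of all union regions). The KO lists held 94.1% and 95.6% of shared regions at 3 h, against 95.5% and 95.8% at 0 h. The shortened KO lists covered more of the genome than the control lists, with 31.0 and 28.7 Mb at 3 h, against 28.2 and 27.7 Mb at 0 h, and the part of this width in the shares was not tested. In the KO lists as deposited, which held 107045 to 115966 hotspots on these chromosomes at 3 h and 0 h, the same patterns were found in 34 gained regions (4.36%, against 0.873% of all union regions) and 2 lost regions (0.345%, against 0.314%).

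**Figure D4:**
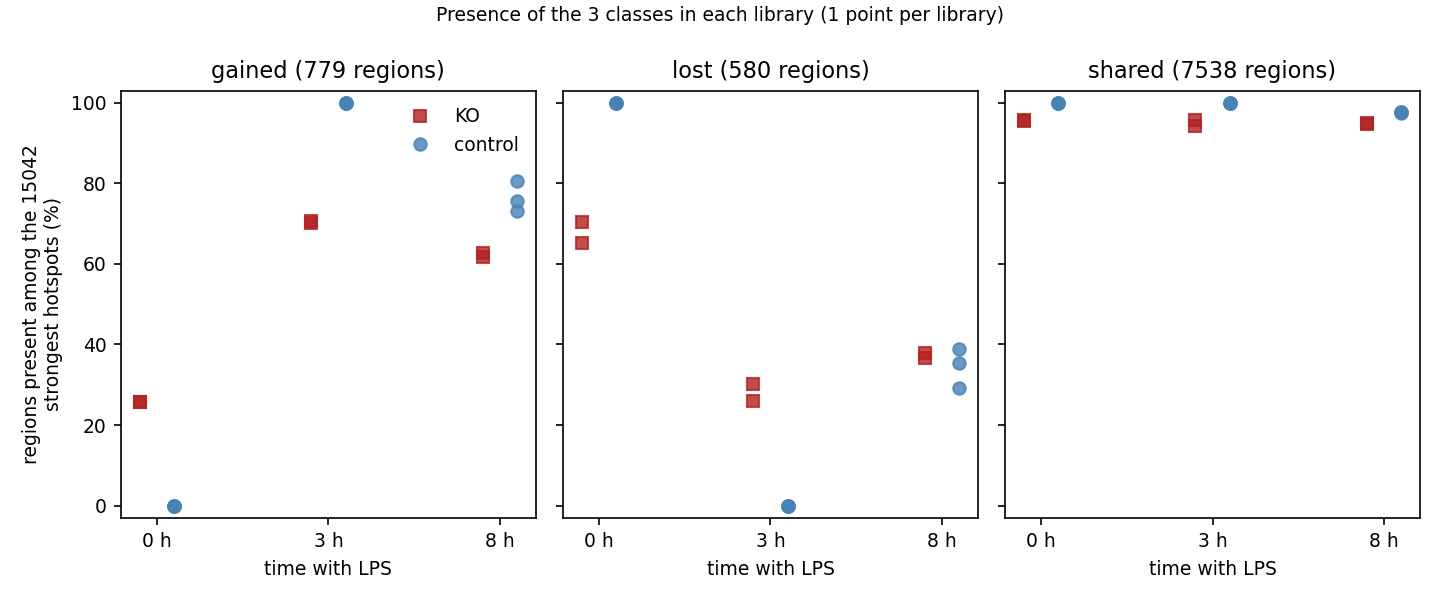
Share of the gained, lost and shared regions found among the 15042 strongest hotspots of each library, 1 point per library, by hours of LPS, for KO (squares) and controls (circles); control points at 0 h and 3 h are fixed at 0 or 100% by the choice of regions. In KO the gained regions are at 25.7 to 25.8% at 0 h, 70.1 to 70.6% at 3 h and 61.7 to 62.6% at 8 h, and the shared regions stay above 94%.

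Other gained regions did not change in this way in KO. Of the 779, 152 (19.5%, against 47.1% of all union regions) were in both KO lists at 3 h and both at 0 h. Another 180 (23.1%, near the 26.2% of all union regions) were in none of these 4 lists. Of shared regions, 90.9% were in all 4 and 1.79% in none. Of the 10 strongest gained regions, 6 were in both KO lists at 3 h and in neither at 0 h, and 4 were in all 4. The region chr11:116238167-116239022 ranked 655 and 634 in KO at 3 h, against 30038 and 21410 at 0 h. The region chr12:114035812-114036589 ranked 550 and 689 in KO at 3 h and already 5340 and 7415 at 0 h, although no deposited control list held it at rest. The strongest gained region, on chromosome 9, ranked 10064 and 14072 in KO at 3 h, against 48030 and 52514 at 0 h, so it was weaker in KO than in every control library at 3 h. KO libraries differ from the controls in the level at which lists were cut and in the width of their hotspots, and these cannot be told apart from genotype.

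Of the 10 strongest lost regions, 6 were in neither KO list at 3 h and in both at 0 h, 3 were in all 4 and 1 in none. The region chr5:64727821-64729037 ranked 33612 and 33308 in KO at 3 h, against 2049 and 2018 at 0 h. The region chr10:59829809-59830945 ranked 25494 and 29997 in KO at 3 h, against 3676 and 5206 at 0 h. The region in none of the 4 lists was chr3:87205029-87205998, which ranked 64658 in KO replicate 1 at 3 h and 58911 in KO replicate 2 at 0 h and was missing from the other 2 deposited lists.

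The rank shifts of shared regions were also seen in KO. All 26 called regions were in all 4 shortened KO lists. Of the 20 that ranked better in controls at 3 h, 19 had both KO ranks at 3 h better than both at 0 h, against 22.8% of the 6850 shared regions in all 4 KO lists, and 1 had both worse. Of the 6 that ranked worse in controls, 4 had both KO ranks at 3 h worse than both at 0 h, against 33.2%, and the other 2 overlapped. The median KO shift was -1.87 for the 20 and 1.02 for the 6, against 0.09 for all 6850. At chr11:69221921-69225788 the KO ranks were 68 and 57 at 3 h, against 506 and 1030 at 0 h in KO. At chr6:117380847-117382231 KO libraries ranked 2492 and 4717 at 3 h, against 284 and 236 at 0 h. At chr19:43875691-43876619 the KO ranks were close, 2764 and 3077 at 3 h against 2445 and 2473 at 0 h, where the control ranks shifted by 2.67 on the log2 scale.

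**Figure D5:**
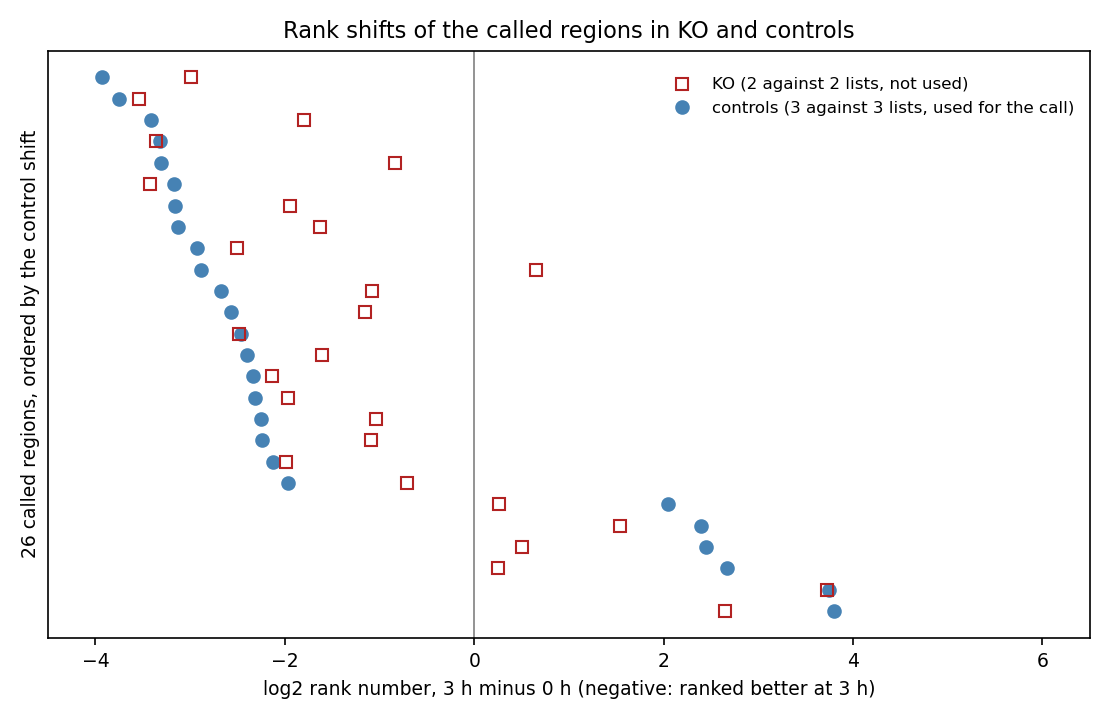
Difference in log2 rank number, 3 h LPS minus 0 h, for the 26 called shared regions in KO (open squares, 2 against 2 lists that the call did not use) and in controls (circles, used for the call), ordered by the control shift. The KO points lie on the same side of 0 as the control points for 25 of the 26 regions.

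Control libraries at 8 h, which the choice of regions did not use either, still held 64.3% of gained and 20.3% of lost regions in all 3 lists. The 3 lists at 8 h, shortened to 15042 hotspots, held 569 (73.0%), 588 (75.5%) and 627 (80.5%) of the 779 in WT replicate 1, WT replicate 2 and the littermate. All 3 held 501 of them (64.3%, against 51.6% of all union regions) and none held 102 (13.1%, against 29.6%). For lost regions the 3 lists held 169 (29.1%), 206 (35.5%) and 225 (38.8%) of the 580. All 3 held 118 of these (20.3%, against the same 51.6%) and none held 290 (50.0%, against 29.6%). The 10 strongest gained regions were all in the 3 lists at 8 h, and chr11:116238167-116239022 ranked 886, 280 and 351 there. Of the 10 strongest lost regions 5 were back in all 3 lists, among them chr10:59829809-59830945 at ranks of 10430, 10161 and 8870, while chr5:64727821-64729037 was missing from both deposited WT lists at 8 h. The shortened lists at 8 h covered 19.6, 20.5 and 27.1 Mb, more than at 3 h or 0 h. In the deposited 8 h lists 99.4% of gained, 96.6% of lost and 93.9% of all union regions were present in all 3, so the shares describe the strongest hotspots only.

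Averaged over pairs, lists of the same time were more alike than lists of different times, but this did not hold for every pair. The Jaccard index, the base pairs shared by a pair of shortened lists over those in either, averaged 0.561 within times and 0.496 between times (exact two-sided permutation p = 0.1, the smallest that 3 against 3 libraries allow). The difference was 0.0650 and did not pass 0.05. Within the WT replicate 1 series the index between 3 h and 0 h was 0.579, within WT replicate 2 0.540 and within the littermate series 0.477. Between libraries of the same time it ran from 0.521 to 0.629 at 3 h and from 0.481 to 0.607 at 0 h, lowest in both cases between WT replicate 1 and the littermate.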

How the data were processed

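DNase-seq hotspots were listed by the authors for each library separately. The submitters' processing notes name CASAVA and the build mm9. Which aligner and caller made the lists is not given in the sources used here, nor is a threshold, apart from the tag FDR1 in the names of the littermate and KO lists, whose meaning is not stated. The columns, per the file headers, hold the peak and average tag density (a signal made by the authors), and the authors deposited a score for each hotspot (a Z-score) and a p-value per hotspot; how these were computed is not stated. The scaling of the signal between libraries is not stated and no read counts were used, so depth is unknown and no counting interval for depth can be given. Densities and Z-scores are the authors'. For the regions they served to rank hotspots within a list, and between lists they were compared only to describe how far down each list reaches and its density step.

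Lists on chromosomes 1 to 19 were shortened to 15042 hotspots by highest density (ties by mean density, then position), merged at 1 bp of overlap, and classed by presence. The rank of a region is the best rank of its hotspots. Ranks of shared regions were tested with limma 3.58.1 (R 4.3.3, trend) on log2 rank with Benjamini-Hochberg adjustment, and single values per library by exact permutation. Same-series libraries pair the samples: deviations from the time means correlated at 0.609, 0.412 and 0.397 in the 3 series. The first pair is the WT libraries numbered 1, the second those numbered 2 and the third the littermate libraries, so the value with the series block is given beside the rank counts. Shares have Wilson 95% intervals. Python 3.11.15 was used. The procedures were tested on simulated data that held no pairing of libraries by series. Regions named are the 10 gained regions with the best mean rank at 3 h, the 10 lost with the best mean rank at 0 h, and the 5 called shared regions with the largest shift each way and no overlap of ranks. The comparison, rules and lists were chosen with earlier results of these data known. Marker and gene lists were not used because no mm9 annotation was used here.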

Additional observations from a re-analysis of the deposited data

Results flagged for a closer look

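In 2 of the 779 gained regions the KO libraries moved against the controls, and the difference was not tested. That is 0.257%, against 5.15% of all union regions with this KO pattern, so such regions were rarer among gained regions. Both chr1:77511932-77513209 and chr12:114255284-114256096 entered all 3 control lists by 3 h, yet were in neither KO list at 3 h and both at 0 h. The first ranked 15376 and 16826 in KO at 3 h, against 14777 and 13363 at 0 h, so it lay close to the cut of 15042 at both times. The second ranked 17655 and 22629 in KO at 3 h, against 13517 and 12671 at 0 h.

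Another 2 regions, of the 580 lost in controls, were gained in KO, again without a test of the difference. That is 0.345%, against 5.26% of all union regions with this KO pattern. The region chr1:108297140-108298181 ranked 10379 and 12778 in KO at 3 h, against 21533 and 28114 at 0 h, and chr12:85616010-85616892 ranked 12125 and 13648 at 3 h, against 16475 and 24706 at 0 h.

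The shared region chr6:113256082-113258616 ranked better at 3 h than at 0 h in every control library and worse in both KO libraries. The KO libraries gave it ranks of 37 and 40 at 3 h, against 26 and 23 at 0 h, a shift of 0.65 on the log2 scale, against ranks of 20, 17 and 23 at 3 h and 149, 115 and 184 at 0 h in controls. The difference between the genotypes was not tested.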

How the results depend on the processing

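Counts of gained and lost regions moved by less than 1.5 times with lists ordered by Z-score (850 and 634) or mean density (752 and 566), with 50% of a region covered (710 and 598) and with chromosome X added (776 and 598). They moved further with lists 0.5 times as long (363 and 261), as deposited (357 and 379) and in 500 bp bins (2040 and 1438 bins). The littermate series alone gave 23178 and 23376, an alternative chosen after seeing the data. The number of union regions changes with these settings. As shares of it, gained and lost regions were 2.86% and 2.06% at 0.5 times the length, against 3.13% and 2.33% in the main setting. In bins the shares were 2.95% and 2.08%. In the lists as deposited they were 0.427% and 0.453%, and in the littermate series alone 31.9% and 32.2%. Leaving out a library or a series gave 973 to 1751 gained and 780 to 1707 lost regions, with fewer lists to satisfy. These were 4.04% to 6.21% and 3.23% to 5.80% of union regions. Shared regions ranked better and worse numbered 3 and 1 on normal scores, 0 and 0 on linear percentiles, 32 and 13 by Z-score and 0 and 0 by mean density. They numbered 0 and 0 at 0.5 times the length (limma, 176 of 3616 at an unadjusted p under 0.05, 4.87%), and 1 and 0 with 50% covered. With the series as a replicate block, which was run on the log2 scale and the main lists only, they numbered 183 and 172. Leaving out a library or a series gave 0 to 45 better and 0 to 31 worse. No named shared region changed direction under any alternative that kept it, but 92 of 155 such values no longer passed 0.05. The naming rule required separated ranks, so rescaled ranks, the series block or a left-out library could hardly reverse a direction. The kept direction is therefore mostly fixed by that rule. Of 160 values each, named gained regions held their class in 146 and named lost regions in 131. Leaving out a list at an unchanged length could hardly end a class either, since the remaining lists had already met its rule. The difference in median width turned from -4 bp to 14.3 bp at 0.5 times the length (exact permutation p = 0.9). The KO shares fell to 4.36% and 0.345% in KO lists as deposited, and the shares in all 8 h lists rose to 99.4% and 96.6%. The cause of these changes was not tested. Depth is unknown, and the shortest list sets how weak a site can be and still be compared.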

Other observations

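Among the gained regions, 157 were in none of the 6 shortened KO lists at 0, 3 or 8 h. The share of all union regions in none of the 6 was not computed. In no KO list at 0 h or 3 h were 23.1% of gained and 26.2% of all union regions. In no KO list at 8 h were 33.6% and 36.8%. Absence from KO lists was thus not more common among gained regions than among all union regions, many of which a single control list held. Of shared regions, which ranked better than gained ones in the controls, 1.79% were in no KO list at 0 h or 3 h. In no KO list at 8 h were 3.83% of shared regions. The strongest of the 157 was chr1:135244441-135245419. It ranked 7221, 4451 and 1605 in the controls at 3 h and was in no deposited control list at 0 h. Its ranks in the 6 KO lists ran from 40928 (replicate 1 at 8 h) to 80242 (replicate 2 at 0 h). In the run of 6 gained regions on chromosome 19, 3 members were in none of the 6 shortened KO lists. Another 2 were in both KO lists at 3 h and neither at 0 h. The 3 also ranked better in KO at 3 h but stayed past the cut. The region chr19:34644193-34645228 ranked 27822 and 19402 at 3 h, against 38331 and 49777 at 0 h. The region chr19:34651345-34652978 ranked 28075 and 23609 and was missing at 0 h. The region chr19:34657379-34658828 ranked 18611 and 23283, against 46594 and 29112 at 0 h. In the run of 5 on chromosome 11 all 5 were in both KO lists at 3 h and in neither at 0 h. These regions were singled out after their values were seen.

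Gained regions that all 3 control lists at 8 h held were in both KO lists at 3 h and neither at 0 h in 213 of 501 cases (42.5%). Those that some of the 8 h lists held were so in 49 of 176 (27.8%), and those that none held in 20 of 102 (19.6%). The same shares were not computed for all union regions, so no background stands beside them. The strongest gained region outside all shortened 8 h lists was chr10:117266563-117267297. It had ranks of 6120, 4477 and 3028 at 3 h and weaker ranks of 20442, 16941 and 17187 at 8 h. The region chr8:26414938-26415655, also outside the 8 h lists, ranked 4179, 7767 and 5346 in controls at 3 h, and in the KO series it ranked 2184 and 2158 before LPS, 1012 and 1131 after 3 h, then 768 and 1032 after 8 h. No difference between these groups of regions was tested.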
